A study of Canis lupus familiaris with 77 samples.

Results

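cfa-miR-423a is the dog microRNA (miRNA) made from the 5p arm of the miR-423 hairpin, and in the dog miR-seq atlas it was chosen by its RPM (reads scaled to the same miRNA total in every library) in plasma, which is far above that in other tissues. It is 1 of 650 miRNAs with at least 1 read, and its row was taken by name, with RPM and counts read for every sample. Because the plasma level chose it, its levels by tissue and its plasma folds are given as a description with no test. The row also carries the human and rat names of miR-423-5p. It carries as well the name of miR-3184-3p, which human annotation places on the opposite strand, and since the strand setting of the counting is not stated, reads of both strands cannot be told apart.

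A miRNA hairpin is cut into a 5p and a 3p strand, and the strand that is kept in an Argonaute protein guides it to messenger RNAs that match the seed near its 5′ end. miRNAs are also found outside cells, in plasma and serum, in vesicles or bound to protein. The miR-423 hairpin lies inside the gene NSRP1, which encodes a splicing regulator, and in a dog gene table of another assembly (UU_Cfam_GSD_1.0) MIR423A was likewise contained in NSRP1. In people, circulating miR-423-5p is best known as a blood marker studied in heart failure.

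Libraries were made from 16 tissues of untreated male beagle dogs, which the study's methods give as 10 months old and perfused with saline before the organs were taken. The labels describe plasma as 2 mL in K2EDTA and bone marrow as 2 mL, and the 14 solid tissues are sections of organs. There were 76 libraries, 5 of each tissue except colon with 4 and sciatic nerve with 2, taken from 5 dogs in all by the study's methods. For sciatic nerve the methods describe a pool of all 5 dogs split into 3 replicates and another passage describes 2 single samples beside a pool, so whether the 2 libraries are of separate dogs is not settled. The methods give organ RNA as isolated on magnetic beads (KingFisher), bone marrow RNA with TriReagent LS and plasma RNA by a separate biofluid step, while the labels name 1 procedure for all, so that tissue and isolation cannot be told apart.

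Between 157871 and 7896424 miRNA reads were counted per library, with 274790 to 1765863 in plasma and 162310 to 239023 in bone marrow. The upper limit behind a value of 0, taken as 3 reads, corresponded to 1.70 to 10.9 RPM in plasma and 12.6 to 18.5 RPM in bone marrow. Such limits, and the intervals given for single libraries, describe counting error alone. The study's supplement reports low RNA integrity in plasma. In bone marrow it reports a lower share of mapped reads, which went with low integrity, though low integrity did not always go with fewer mapped reads. The part of RNA integrity in the levels of miR-423a was not tested. The marker of the labelled tissue was checked in 12 tissues, and in 8 libraries of 4 tissues it lay under 10% of the highest value of that tissue. These were skeletal muscle replicate 4 (miR-1), testis replicates 2 and 3 (miR-202), thymus replicates 2, 3 and 5 (miR-142, a white cell miRNA) and duodenum replicates 3 and 4 (miR-192, an intestinal and hepatic miRNA added to the markers after the values were seen). In skeletal muscle replicate 4 the muscle miRNA miR-1 stood at 9.07 RPM, against 1393 to 3057 RPM in the other 4 muscle libraries. Calls of miR-423a, miR-423-3p and their ratio between tissues are given with and without these 8 libraries where leaving them out changed the call. The counts of the miRNA lists given below are from all libraries, and some of them changed without these 8.

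In plasma, miR-423a made up 0.902 to 2.10% of the reads on miRNAs. Its level was 14717, 9016, 20890.2, 21043 and 19489 RPM in plasma replicates 1 to 5, from 4044, 15921, 28991, 32947 and 28191 reads. The mean was 17031 ± 5163 RPM (SD, n = 5). Replicate 2 was the low one, and its 95% Wilson interval of 8878 to 9157 RPM did not reach that of the next library, 14273 to 15174 RPM in replicate 1.

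Every plasma library held more miR-423a than each of the 71 libraries of other tissues. Such a separation of plasma from the rest was seen in 11 of 650 miRNAs (1.69%). The highest library elsewhere was a sciatic nerve sample with 3403 RPM, and the plasma median of 19489 RPM was 5.73 times that value. The plasma mean was 17.5 times the mean of all other libraries. By a rank test of plasma against the rest with a fold over 5, 27 of 650 miRNAs (4.15%) were called. Only 2 of 650 miRNAs (0.308%), both among the 266 of high expression (0.752%), had a plasma median more than 5 times the highest library elsewhere: rno-miR-16-3p, the minor arm of a miR-16 hairpin, with 5.89 times, and miR-423a. The next miRNA of high expression below this limit was cfa-miR-93, a member of the miR-17 family, with 4.07 times. The plasma median of rno-miR-16-3p was 145 RPM.

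By median level in plasma, miR-423a ranked 8 among the 650 miRNAs. Directly above it stood cfa-miR-142, a miRNA of white blood cells, with a plasma median of 22440.2 RPM and single libraries from 12752 to 34644 RPM. Directly below it stood cfa-miR-93 with a median of 14515 RPM and a range of 9193 to 16250.4 RPM. The ranges of these neighbours overlapped that of miR-423a, so the order among the 3 was not larger than their spread. What set miR-423a apart from miR-142 was the level elsewhere, since miR-142 reached 17682 RPM in bone marrow. Within single plasma libraries miR-423a ranked between 5 and 18, within bone marrow between 79 and 92, and within solid tissues between 33 and 92.

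**Figure D1:**
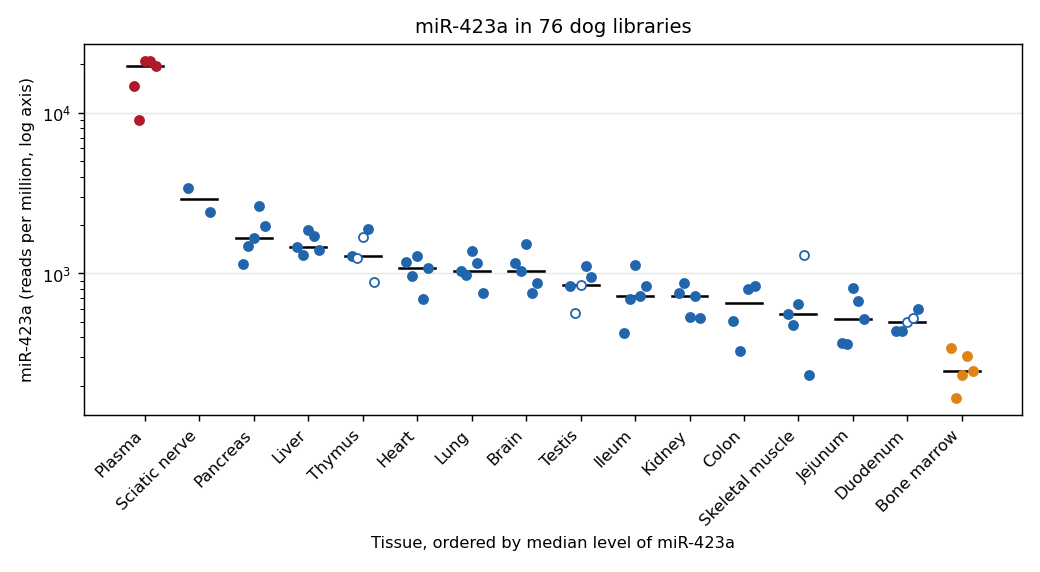
Level of miR-423a in each of the 76 libraries, in RPM on a log axis, by tissue ordered by median (plasma red, bone marrow orange, solid tissues blue, black lines medians, open circles the 8 libraries whose tissue marker was low). The 5 plasma libraries lie between 9016 and 21043 RPM, above every other library, and bone marrow lies lowest.

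Bone marrow was the tissue with the lowest median. Its 5 libraries held 345, 167, 232, 307 and 248 RPM, with a mean of 260.0 ± 68.7 RPM (SD, n = 5). These values rest on 56, 40, 43, 58 and 54 reads, so that the 95% Wilson interval of the lowest library ran from 123 to 228 RPM. The plasma mean was 65.5 times the bone marrow mean. The bone marrow range lay below that of every solid tissue except skeletal muscle and colon, whose lowest libraries (234 and 330.3 RPM) fell within it.

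Among solid tissues the level was highest in sciatic nerve, with 3403 and 2414 RPM in the 2 libraries. In pancreas the 5 libraries held 1142, 1475, 1662, 2618 and 1971 RPM. In liver they held 1455, 1297, 1871, 1704 and 1400.4 RPM. These 3 tissues formed an overlapping series at the top of the solid tissues, and no value of theirs reached the lowest plasma library.

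The remaining medians descended from thymus (1289 RPM) through heart (1081), lung (1037), brain (1035), testis (853), ileum (725), kidney (722), colon (653), skeletal muscle (558) and jejunum (523) to duodenum (502). Each neighbour in this order overlapped the next in its range. Of the 15 steps in the whole order, the ranges were separate at 2, from plasma to sciatic nerve and from duodenum to bone marrow. Relative to its median, skeletal muscle spread most among the solid tissues, from 234 to 1297 RPM, and its highest value came from replicate 4, the library with little miR-1. Without it the other 4 muscle libraries lay between 234 and 641 RPM. In bulk RNA of this kind, more cells of a type and more miRNA per cell cannot be told apart.

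Plasma reads were dominated by miR-486 and other miRNAs of a red cell list, not all of which are particular to red cells. miR-486, which is abundant in red blood cells and in muscle, took 76.1, 42.3, 57.9, 51.3 and 60.0% of the reads in plasma replicates 1 to 5. A list of 9 red cell miRNA rows (miR-144, miR-451, miR-486, miR-16, miR-25 and miR-92a with their arms) took 65.4 to 86.7% in plasma, 11.1 to 18.2% in bone marrow and 0.778 to 28.0% in solid tissues. Of this list, the study describes miR-16 as ubiquitous across tissues, and cfa-miR-92a reached 31665 RPM in testis against a plasma median of 30834 RPM. The share of the list is therefore not a measure of red cell content. Because RPM values of a library sum to a fixed total, such a share lowers the RPM of every other miRNA.

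With miR-486 reads taken out of the library total, the RPM of miR-423a in plasma was 61526, 15633, 49650.4, 43236 and 48768 in replicates 1 to 5. The highest plasma library was then replicate 1, which had the largest miR-486 share and the fewest reads, 274790. Replicate 2 stayed the lowest. The coefficient of variation over the 5 plasma libraries was 30.3% in RPM and 39.0% without miR-486, so taking out the most abundant miRNA did not bring the libraries closer together.

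Replicate 2 differed from the other plasma libraries in markers of blood cells as well. Both arms of miR-126, abundant in platelets and endothelium, together stood at 17094 RPM in replicate 2 and at 1707 to 6421 RPM in the other 4. For miR-223, a miRNA of myeloid cells and platelets, the values were 1550 RPM against 120 to 524 RPM. The lymphocyte miRNA miR-150 stood at 2850 RPM against 313 to 1083 RPM, and miR-155 at 240.1 RPM against 25.5 to 64.3 RPM. All 4 markers were thus highest in the library in which miR-423a was lowest. So were miR-142 (35928 RPM), miR-197 (183 RPM) and the red cell miRNAs miR-451 (116508 RPM) and miR-144 (5446 RPM). The pattern was therefore not particular to markers of white cells and platelets. The share of miR-486 was the lowest there, 42.3%, and the RPM values of a library sum to a fixed total. The part of these markers and of the miR-486 share in the level of miR-423a was not tested.

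Several defining markers of organs were at or near 0 in plasma. No plasma library had a read of miR-1, miR-206 (muscle) or miR-124 (brain), and miR-122, the abundant liver miRNA, lay between 0 and 2.16 RPM. The pancreatic miRNA miR-216a lay between 6.80 and 51.7 RPM and miR-133a between 19.8 and 61.3 RPM. Other organ markers were higher, with 110 to 1055 RPM for cfa-miR-375, a miRNA of endocrine and gut cells, and 9294 to 30131 RPM for cfa-miR-192.

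**Figure D2:**
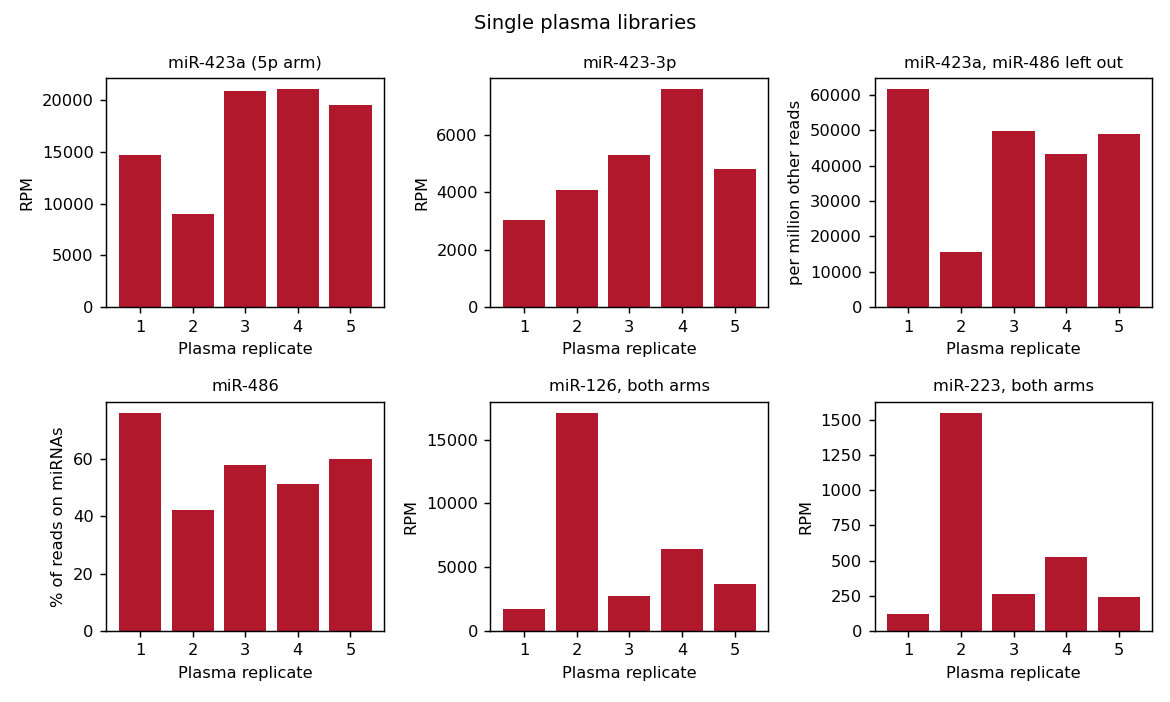
Values of the 5 single plasma libraries, replicates 1 to 5: miR-423a and miR-423-3p in RPM, RPM of miR-423a with miR-486 taken out of the total, the share of reads on miR-486 in percent, and miR-126 and miR-223 in RPM. Replicate 2 has the lowest miR-423a (9016 RPM) and the highest miR-126 (17094 RPM) and miR-223 (1550 RPM), and replicate 1 has the highest share of miR-486 (76.1%).

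The other strand of the hairpin was measured as a row of its own, which holds miR-423-3p and, on the opposite strand in human annotation, miR-3184-5p. Its level in plasma was 3031, 4081, 5284, 7581 and 4809 RPM in replicates 1 to 5, and its highest value elsewhere was 1349 RPM in brain. All plasma libraries were again above all others. In bone marrow miR-423-3p stood at 364, 121, 362, 259 and 225 RPM.

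In a fit over all 480 miRNAs that passed the filter on low counts (edgeR quasi-likelihood test, trimmed mean of M values (TMM) scaling), 28.8% of miRNAs were higher and 30.0% lower in plasma than in the mean of the 14 solid tissues. miR-423-3p was among those higher, with a log2 fold change of 3.61 (SE 0.15, Benjamini-Hochberg adjusted p = 1.27e-32). For miR-423a the log2 fold change was 4.95, the 12th largest of the 480. In all such contrasts the mean over tissues is taken on the log scale. A tissue of very high level therefore weighs less than in a mean of RPM. Over all tested miRNAs the median log2 fold change was -0.66, and scaling by library totals moved it to -1.11. With library totals the log2 fold changes were 4.13 for miR-423a and 2.87 for miR-423-3p, and of all calls 36.6% were higher in plasma in place of 48.9%. The arm that was not used in choosing miR-423a was thus higher in plasma under either scaling, although both arms come from the same hairpin and libraries.

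Against bone marrow, 26.5% of the 480 miRNAs were higher and 16.7% lower in plasma. miR-423-3p had a log2 fold change of 5.48 (SE 0.35, edgeR adjusted p = 5.62e-22). The log2 fold change of miR-423a was 7.35, the 5th largest, and 6.04 with library totals. Under library totals 69 miRNAs were higher and 123 lower, against 127 and 80 with TMM. The split was not stable, as in 41 of 76 fits that left out 1 library more miRNAs were lower than higher, 36 of them leaving out a solid tissue library. Over these fits 88 to 138 miRNAs were higher and 68 to 105 lower.

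Plasma is not part of the contrast of bone marrow with solid tissues, so both arms were tested in it. The plasma libraries still entered the scaling, filter and dispersion of the fit. The contrast of plasma with bone marrow was also used when miR-423a was chosen, so its p-values here are not free of that choice. In this comparison 17.9% of the 480 miRNAs were higher and 26.7% lower in bone marrow. miR-423a was lower, with a log2 fold change of -2.40 (SE 0.28, edgeR adjusted p = 2.53e-11), and miR-423-3p was lower with -1.87 (SE 0.25, adjusted p = 4.35e-09). Library totals gave -1.90 for miR-423a (adjusted p = 2.63e-08). A fit without the plasma libraries, added after the values were seen, gave -2.45 for miR-423a (edgeR adjusted p = 2.34e-12) and -1.88 for miR-423-3p (adjusted p = 5.65e-09). The median over all miRNAs was -1.03, and -0.72 with library totals, with which 52.8% of all calls were higher in place of 40.2%. That all bone marrow libraries lay under all solid libraries was seen in 6 of 650 miRNAs (0.923%), and miR-423a was not one of them.

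A known red cell miRNA went the other way. MIR144 is the miRNA gene nearest to MIR423A on its chromosome in the other assembly, more than 10 kb away, and miR-144 is transcribed together with miR-451 in red cell precursors. cfa-miR-144 had 1925 to 3979 RPM in plasma, 582 to 1374 RPM in bone marrow and a median of 32.4 RPM in solid tissues. Its log2 fold change in bone marrow against solid tissues was 3.84 (edgeR adjusted p = 2.04e-16), in the direction opposite to that of miR-423a. In plasma against solid tissues its log2 fold change was 6.98. cfa-miR-92a, also of the red cell list, was lower in bone marrow than in solid tissues, with -1.64 (edgeR adjusted p = 2.34e-06). The remaining 8 red cell rows were higher there.

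Beside the hairpin, 6 lists of miRNAs were followed in the same fits, in which 28.8% of all 480 miRNAs were higher in plasma than in solid tissues. Against bone marrow 26.5% were higher. Of the 9 red cell rows, 9 were higher in plasma than in solid tissues, with a median log2 fold change of 5.46 against -0.66 over all miRNAs, and 7 were higher in plasma than in bone marrow. The list of plasma reference miRNAs (miR-16, miR-93, miR-103, miR-191, miR-425 and miR-484), which others have used to scale blood measurements, was higher in plasma in 9 of 9 rows against solid tissues and in 7 of 9 against bone marrow. Of these rows 3 also belong to the red cell or platelet lists. Library totals left 7 of 9 higher against solid tissues and 6 of 9 against bone marrow. Without the 8 libraries of low marker level 8 of 9 were higher against solid tissues. cfa-miR-93 had a log2 fold change of 4.62 against solid tissues, and hsa-miR-484 had 2.16. Relative to the summed counts of this list, the plasma median of miR-423a was 1.69 times the highest library elsewhere.

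White cell and platelet rows were split. Of all 480 miRNAs 28.8% were higher and 30.0% lower in plasma than in solid tissues, and 26.5% and 16.7% against bone marrow. Of 7 white cell rows, 5 were higher and 1 lower in plasma than in solid tissues, whereas 2 were higher and 4 lower in plasma than in bone marrow. Among them, cfa-miR-142 had log2 fold changes of 5.26 and 2.06, and cfa-miR-146a, an inflammatory regulator, had -0.57 (adjusted p = 0.249) and -3.05. Of 10 tested platelet rows, 5 were higher and 2 lower against solid tissues and 2 higher and 5 lower against bone marrow. The platelet rows cfa-miR-150, cfa-miR-223 and hsa-miR-223-5p are also white cell rows, and all of them were higher against solid tissues. The only other platelet rows higher there were cfa-miR-191 and rno-miR-21-3p. Scaling by library totals made the platelet counts 4 higher and 4 lower against solid tissues, and the median log2 fold change -0.30 in place of 0.30. Over the 76 fits that left out 1 library, 2 to 3 platelet rows were higher and 3 to 7 lower than in bone marrow, and 1 to 2 white cell rows were higher and 4 lower. cfa-miR-126 had a log2 fold change of -0.50 in plasma against solid tissues (adjusted p = 0.128) and -0.89 against bone marrow (adjusted p = 0.0464).

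A further list held miRNAs that have been studied beside miR-423-5p in the blood of people with heart failure. Of its 7 tested rows, 2 were higher and 1 lower in plasma than in solid tissues, beside 28.8% higher and 30.0% lower of all 480 miRNAs. The 2 higher rows, cfa-miR-129 and cfa-miR-18b, had plasma medians of 4.84 and 6.49 RPM, close to the limit taken as 3 reads. cfa-miR-320 had a log2 fold change of -0.00 (edgeR adjusted p = 1.00), cfa-miR-22 was lower with -0.70 (adjusted p = 0.0147), and cfa-miR-92b had 0.39 (adjusted p = 0.511). With library totals none of the 7 was higher and 2 were lower, with a median log2 fold change of -0.23 in place of 0.39. Leaving out 1 library gave 1 to 4 higher and 0 to 1 lower. Against bone marrow 4 of the 7 were higher and 1 lower in plasma, and with library totals 1 and 1. Of all 480 miRNAs 26.5% were higher and 16.7% lower in plasma than in bone marrow. Of the 25 tested organ marker rows, 6 were higher and 7 lower in plasma than in solid tissues, and 4 were higher and 1 lower than in bone marrow. Among those higher was cfa-miR-128, best known from brain, with 1649 to 4284 RPM in plasma and a log2 fold change of 3.66 (edgeR adjusted p = 1.59e-23). Also higher against solid tissues were hsa-miR-122-3p, hsa-miR-133a-5p and hsa-miR-499a-3p, with plasma medians of 0, 4.15 and 3.64 RPM. These medians lie near the limit taken as 3 reads. The remaining higher rows, cfa-miR-216a and cfa-miR-499, reached 51.1 and 104.2 RPM in plasma, against 4535 and 4465 RPM in solid libraries. In bone marrow against solid tissues, 17.9% of all 480 miRNAs were higher and 26.7% lower. Of the lists, 8 red cell rows were higher and 1 lower, and 6 white cell rows were higher and none lower. Of the heart failure rows 2 were higher and 4 lower. In that comparison 3 rows were higher and 1 lower in both the platelet and the plasma reference list, and 1 organ marker row was higher and 6 lower.

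**Figure D3:**
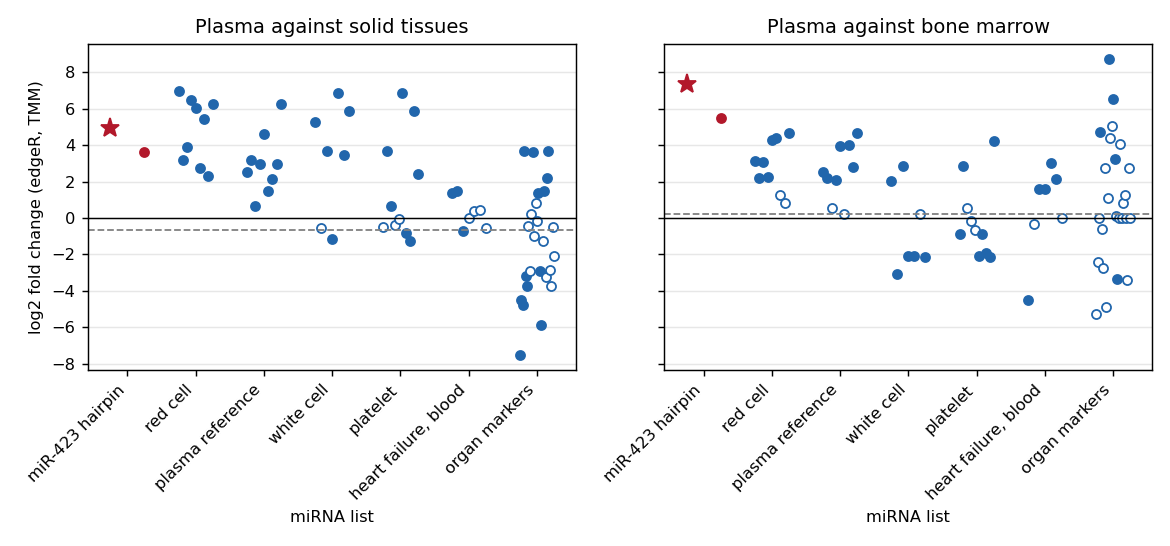
Log2 fold changes from the edgeR fit with TMM scaling for every tested row of 7 miRNA lists, in plasma against solid tissues (left) and against bone marrow (right), with filled circles for adjusted p under 0.05, the red star for miR-423a, which was not tested, and the dashed line at the median of all 480 miRNAs. Rows drawn at 0 in the right panel include miRNAs without a read in either tissue. Only the hairpin, red cell and plasma reference lists have no row that was called lower in plasma.

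The ratio of 5p to 3p reads of the hairpin is a ratio within a library and does not depend on scaling. It was 4.85, 2.21, 3.95, 2.78 and 4.05 in plasma replicates 1 to 5. In bone marrow it was 0.949, 1.38, 0.642, 1.18 and 1.10. The median over the 66 solid libraries was 1.35, and the ratio was above 1 in 57 of the 66, in 5 of 5 plasma and in 3 of 5 bone marrow libraries. The plasma values overlapped the upper solid values, as 10 solid libraries were at or above the lowest plasma ratio. The library with the lowest ratio in plasma was again replicate 2.

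Between bone marrow and the solid tissues the medians of this ratio differed by -0.30 on the log2 scale, which did not pass the threshold (two-sided exact rank-sum test, p = 0.0624). Without bone marrow replicate 2 the difference was -0.41 (exact p = 0.0309). Among the solid tissues, 4 of 14 differed from the other solid tissues in exact rank-sum tests that were added after the values were seen, with p adjusted over the 14 tissues. The median ratio was 2.51 in pancreas against 1.29 (exact test, adjusted p = 6.17e-04) and 2.64 in sciatic nerve against 1.33 (exact test, adjusted p = 0.0392). It was 0.858 in kidney against 1.41 (exact test, adjusted p = 6.39e-04) and 1.05 in testis against 1.41 (exact test, adjusted p = 0.0392). Without the 8 libraries of low marker level testis had 3 libraries and a log2 difference of -0.48 in place of -0.43, which no longer passed (exact test, adjusted p = 0.196), and the other 3 kept their direction and call. Sciatic nerve had only 2 libraries, which may not be of separate dogs.

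**Figure D4:**
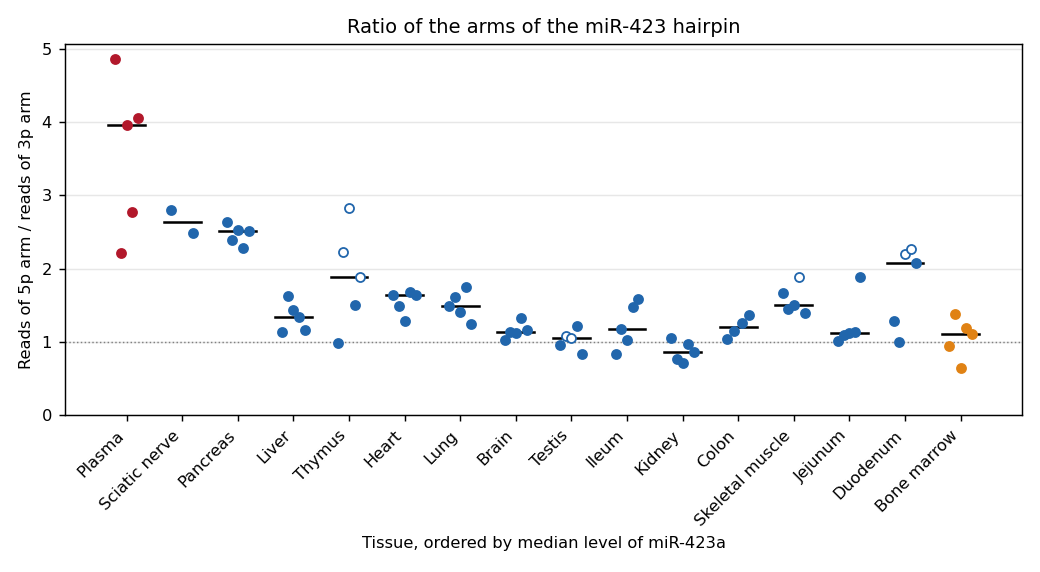
Reads of the 5p arm divided by reads of the 3p arm of the miR-423 hairpin in each library, by tissue in the order of the level of miR-423a (plasma red, bone marrow orange, solid tissues blue, black lines medians, dotted line a ratio of 1, open circles the 8 libraries of low marker level). Plasma spans 2.21 to 4.85, pancreas and sciatic nerve follow with medians of 2.51 and 2.64, and kidney has a median of 0.858.

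Within 2 organs the ratio varied widely between libraries. In thymus the ratio was 0.979 and 1.51 in replicates 1 and 4 and 2.22, 2.82 and 1.89 in replicates 2, 3 and 5, the 3 libraries with little miR-142. In duodenum it was 1.28 and 0.999 in replicates 1 and 2 and 2.20, 2.26 and 2.08 in replicates 3 to 5, of which replicates 3 and 4 held little miR-192. The libraries with little of the marker thus had high ratios within both tissues, and so had duodenum replicate 5. The part of tissue content in these ratios was not tested.

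The level of miR-423a was also compared between each solid tissue and the mean of the other 13, contrasts that hold no plasma. By the edgeR fit with TMM it was higher in 4 of 14 tissues and lower in 3. In sciatic nerve, where 37.9% of miRNAs were called in either direction, the log2 fold change was 1.36 (SE 0.29, adjusted p = 1.19e-04). In pancreas, with 44.2% called, it was 1.12 (SE 0.20, adjusted p = 2.28e-06). In jejunum, with 43.8% called, it was -0.85 (SE 0.24, adjusted p = 0.00236). These 3 calls were also made with library totals, with DESeq2 size factors, by DESeq2, without the 8 libraries of low marker level and without the plasma libraries. The call in sciatic nerve rests on 2 libraries that may not be of separate dogs, which none of these alternatives addresses.

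Other parts of the gut were near the threshold. Duodenum had a log2 fold change of -0.61 (edgeR adjusted p = 0.0515) and was called lower with library totals (-1.03, adjusted p = 0.00150), by DESeq2 (-0.74), with its size factors (-0.74), without the 8 libraries (-0.85, adjusted p = 0.0240) and without plasma libraries (-0.67). Ileum had -0.56 (adjusted p = 0.0563) and was called lower by DESeq2 (-0.72), with its size factors (-0.72), without the 8 libraries (-0.59, adjusted p = 0.0372) and without plasma libraries (-0.58). Colon had -0.65 (adjusted p = 0.0561) and was called lower by DESeq2 (-0.73), with its size factors (-0.73) and without plasma libraries (-0.69). Single alternatives also called skeletal muscle lower (library totals, -0.64) and lung lower (DESeq2, -0.55).

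The other calls of the fit with TMM depended on scaling or on those 8 libraries. Liver was higher by 0.84 (adjusted p = 4.56e-04, with 43.1% of miRNAs called), and stood at 0.41 with DESeq2 size factors (adjusted p = 0.110). Thymus was higher by 0.59 (edgeR adjusted p = 0.0259, with 26.7% called), and stood at 0.19 without the 8 libraries (adjusted p = 0.805); without thymus replicate 3 or 4 alone the call was lost as well, with 0.54 and 0.50. Testis was lower, with -0.57 (adjusted p = 0.0374, with 46.2% called), and at -0.18 with library totals (adjusted p = 0.611); the call was lost without testis replicate 2 (-0.52) and without brain replicate 4 (-0.43). Brain was lower, with -0.90 (adjusted p = 5.99e-04, with 74.4% called), but was 0.15 above the other tissues with library totals (adjusted p = 0.574) and at -0.06 without the 8 libraries (adjusted p = 0.848). The arithmetic mean was 1071 RPM in brain and 1104 RPM over the tissue means of the others. These are not the log scale means used in the fit.

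For miR-423-3p the calls fell partly in other tissues. It was higher in liver, with a log2 fold change of 0.97 (edgeR adjusted p = 2.24e-05), and in kidney with 0.95 (adjusted p = 3.99e-05, with 36.7% of miRNAs called). It was lower in duodenum with -0.90 (adjusted p = 0.00173, with 20.8% called), in jejunum with -0.58 (adjusted p = 0.0278) and in brain with -0.52 (adjusted p = 0.0281). The calls in liver and duodenum were made in all 4 fits and without the 8 libraries, and kidney was not called with library totals (0.25, adjusted p = 0.537). Jejunum was not called with library totals (-0.60, adjusted p = 0.0628) or without the 8 libraries (-0.41, adjusted p = 0.130). Brain was called in the opposite direction with library totals (0.52, adjusted p = 0.0480), and was not called without plasma libraries (-0.37, adjusted p = 0.120) or without the 8 libraries (0.23). Without the 8 libraries pancreas (0.56, adjusted p = 0.0208) and sciatic nerve (0.73, adjusted p = 0.0447) were called higher, which in the TMM fit with all libraries had 0.30 and 0.41. Pancreas was also called higher by DESeq2 (0.54, adjusted p = 0.0130) and with its size factors in edgeR (0.54). Lung was called lower by both (DESeq2 -0.63, adjusted p = 0.00455), and skeletal muscle with library totals in edgeR (-0.87, adjusted p = 0.00751).

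**Figure D5:**
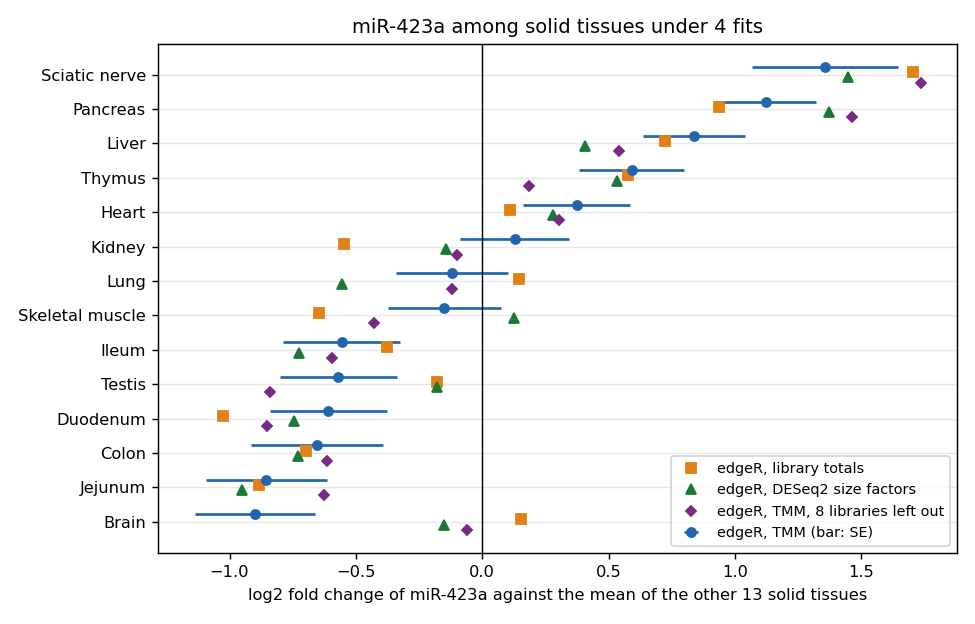
Log2 fold change of miR-423a in each of the 14 solid tissues against the mean of the other 13, from edgeR with TMM (blue, bars are standard errors derived from the test statistic), with library totals (orange squares), with DESeq2 size factors (green triangles) and with TMM without the 8 libraries of low marker level (purple diamonds). Sciatic nerve, pancreas, liver, thymus and heart lie above 0 in every fit drawn. Jejunum, duodenum, ileum, colon and testis lie below 0 in every fit drawn, while brain runs from -0.90 to 0.15. Only sciatic nerve, pancreas and jejunum were called in all of these fits.

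The miRNAs whose pattern over the 16 tissue medians was most like that of miR-423a were sought among 265 other miRNAs of high expression, by Spearman correlation. The values are a description, since all points share libraries and scaling. The row of miR-423-3p came first with a rho of 0.803 and stayed first over the 15 tissues without plasma, with 0.761. hsa-miR-331-5p followed with 0.744, with medians of 155.2 RPM in plasma and 4.60 RPM in bone marrow. cfa-miR-92b had 0.641, hsa-miR-744-5p 0.635 and hsa-miR-484 0.579. In level cfa-miR-92b was unlike miR-423a, with medians of 34.6 RPM in plasma, 10.6 RPM in bone marrow and 27082 RPM in brain. Of these 5, 2 were among the first 5 without plasma or with TMM scaling and 3 with a Pearson correlation of log2 values.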

How the data were processed

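Small RNA libraries were made and sequenced by the authors, who clipped adaptors, aligned reads to the dog genome (CanFam3.1, as in the submitters' processing notes) without mismatches with OSA, and counted with bedtools the reads that covered most of a known or putative miRNA locus. The deposited counts are reads per miRNA and sample, and the deposited total is the authors' sum of reads on miRNAs. RPM was recomputed as count over total, and a miRNA not listed in a sample was set to 0. Of the sample names in the table, 1 matched no label and was not used, and 1 labelled colon sample had no values.

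Counts of all miRNAs were fitted with edgeR 4.0.16 (quasi-likelihood test, TMM, deposited totals as library sizes, filterByExpr, 1 fit over 16 tissues), with Benjamini-Hochberg adjustment over the 480 miRNAs tested and a threshold of 0.05. Means over several tissues in these contrasts are equal-weight means of the fitted tissue levels on the log scale. Fitted fold changes of miRNAs without reads in a group depend on the prior count. The SE given with an edgeR fold change is its absolute log2 value divided by the square root of the F statistic of the test. It is not a fitted standard error. DESeq2 1.42.0, other scalings, other filters and left-out libraries served as alternatives. The fits ran in R 4.3.3, everything else in Python 3.11.15, using matplotlib 3.10.9 for plots and scipy 1.17.1, pandas 2.3.3 and numpy 2.4.6 for tables. Exact rank-sum tests used midranks. A miRNA counted as highly expressed where 1 or more tissue medians passed 100 RPM. The procedures were tested on simulated data.

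The labels number no dogs, so tissues of the same dog entered the tests as independent samples and dog could not be a term. The p-values measure only the spread between these samples. miR-423a, the marker lists and the tests were chosen with earlier results of these data known. Named miRNAs are the hairpin, list members as examples, the 5 most similar patterns and the neighbours by plasma median. The marker miR-192 was added after its values were seen. No reference sequence was used here, so no sequence is printed and miRNAs of the same seed were not listed. The authors' own RPM column and their column of its maximum per miRNA were not used.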

Additional observations from a re-analysis of the deposited data

Results flagged for a closer look

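In 45 groups of 4 or 5 libraries, the gap of the highest or lowest library was compared with the range of its group (Dixon's test at 95%), for miR-423a, miR-423-3p and their ratio. Chance flags about 5% of groups, and 5 libraries were flagged, none of them for the level of miR-423a and none in plasma or bone marrow. For miR-423-3p they were ileum replicate 3 with 1095 RPM, kidney replicate 2 with 1151 RPM and lung replicate 3 with 981 RPM, each above the rest of its tissue, and liver replicate 2 with 801 RPM, below the rest. In the ratio of 5p to 3p reads it was jejunum replicate 5, with 1.88. The kidney and liver calls of miR-423-3p were also made without these libraries.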

How the results depend on the processing

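The ratio of the plasma median of miR-423a to the highest library elsewhere was 5.73 in RPM. It was 12.9 with TMM, 11.9 with DESeq2 size factors, 13.2 without miR-486 reads, 22.1 without the red cell list, 1.69 relative to the plasma reference list and 7.44 without sciatic nerve, the last chosen after seeing the data. The ratio of the plasma mean to the mean of other libraries was 17.5, and 30.7, 35.5, 43.2, 73.9 and 6.87 under the first 5 of these. The ratio to the bone marrow mean was 65.5, and 163, 145.9996, 156, 252.5 and 50.5 under the same 5. All these ratios stayed above 1.

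Leaving out 1 library at a time gave 5.03 to 7.44 (the highest without sciatic nerve replicate 1), 16.5 to 19.6 and, over plasma and bone marrow libraries, 60.2 to 73.2 for the 3 ratios, 255 to 284 calls in plasma against solid tissues, 186 to 209 against bone marrow, 183 to 219 in bone marrow against solid tissues, 2396 to 2648 over the solid tissues and, over plasma libraries, 22 to 34 by the rank test of plasma. The difference of the arm ratio in bone marrow ran from -0.41 to -0.25, and of 71 such tests without 1 bone marrow or solid library only that without bone marrow replicate 2 passed. The rank test called 27 miRNAs, and 17 with the filter on expression.

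Brain turned from lower to higher with library totals for miR-423a (0.15), and for miR-423-3p with library totals (0.52), DESeq2 size factors (0.22), DESeq2 (0.22) and without the 8 libraries (0.23), an alternative chosen after seeing the data. The causes were not tested. For miR-423-3p the highest adjusted p (edgeR) over the 76 fits that left out 1 library was 0.151 in brain and 0.187 in jejunum. Bone marrow counts of 40 to 58 reads limit the precision of its levels. No paired analysis was possible because the labels number no dogs, although the methods name 5.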
